A study of Saccharomyces cerevisiae with 30 samples.

Results

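2,2'-bipyridyl (BIPR) and 1,10-phenanthroline (PHEN) are small metal chelators that bind iron through the same pair of nitrogen atoms. The molecules differ in their skeleton: the rings of phenanthroline are fused through an added bridge, and those of bipyridyl are linked by a single bond. The 3 arrays of yeast treated with BIPR and the 3 arrays treated with PHEN were pooled as 1 chelator group, by their titles, and set against the 3 arrays of yeast given DMSO in the same experiment. These 6 chelator arrays are part of a series of 30 arrays. All cultures were of Saccharomyces cerevisiae S288C, which is known as a haploid strain of the alpha mating type, grown at 30 °C in synthetic dextrose medium with a pH buffer. Cultures began at an optical density (OD600) of 0.1 and received 65.9 µM BIPR, 6.2 µM PHEN or 0.25% DMSO at 0.2. They were collected at 0.5 and are labelled 4 h. Each dose was the compound's own IC50, so the doses of BIPR and PHEN differ. The same series holds 3 arrays each, at 4 h, of yeast treated with eupolauridine-9591 (E9591, 0.053 µM) and liriodinine methiodide (LMT, 2.6 µM), each with 3 DMSO arrays of its own, and these served as a comparison. The labels call the replicate cultures biological, and the p-values rest on the spread between such cultures of 1 strain.

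Yeast takes up iron from siderophores (iron-binding molecules) through transporters of the ARN family, and as free iron through surface reductases and a permease. When iron runs short, the activators Aft1 and Aft2 switch on these uptake genes, a set called the iron regulon. The RNA-binding proteins Cth1 and Cth2 then speed the decay of messages for proteins that use much iron. Iron sits in these proteins as iron-sulfur clusters, in heme or as paired iron atoms, and the respiratory chain, the TCA cycle and several amino acid pathways depend on it. The enzymes that make ergosterol and desaturate fatty acids also need iron or heme together with oxygen.

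Transcripts were measured with an Affymetrix yeast array, 1 culture per array, as intensity on a linear scale. A change below is the mean log2(intensity + 1) with the chelators minus that with DMSO, ± the standard error of a limma fit over all 30 arrays, with n = 6 chelator and n = 3 DMSO arrays. That error uses 1 spread per gene, shared by all groups and not taken from the chelator and DMSO arrays alone. A gene was called when its Benjamini-Hochberg adjusted p in limma was under 0.05. Of 5429 tested genes, 2936 were called (54.1%), of which 1715 were higher (31.6% of all tested) and 1221 lower (22.5%), while 175 were at least 2-fold higher (3.22%) and 78 at least 2-fold lower (1.44%). The shares of 31.6% higher and 22.5% lower are the background for every count of list members called with the chelators below. The median change of all genes was 0.04, and its quartiles were -0.18 and 0.27. The split between directions depends on the scaling of the arrays: it was 1363 higher and 1524 lower with quantile normalization, and 1345 higher and 1687 lower with each array centred on its median. Of the 253 genes that changed at least 2-fold, 250 and 253 were called the same way under those settings.

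The 6 chelator arrays lay close to each other, since the SD of the log2 difference was 0.227 to 0.273 between BIPR arrays, 0.232 to 0.266 between PHEN arrays and 0.228 to 0.287 between a BIPR and a PHEN array. Between a chelator and a DMSO array it was 0.535 to 0.666. DMSO replicate C stood apart from replicates A and B, with an SD of 0.386 from A and 0.355 from B, against 0.227 between A and B. Of 295 genes with a mean intensity of 10000 or more on DMSO A and B, a limit chosen after the data were seen, 294 were brighter on C, by a median of 0.63 on the log2 scale. Dimmer genes were lower on C by a median of 0.16 to 0.24. The 3′ to 5′ signal ratio of ACT1, a sign of RNA integrity, was 1.16 to 1.22 on the chelator arrays and 1.15, 1.18 and 1.34 on DMSO A, B and C. Most named genes whose call or sign changed without DMSO C carry that value below. So do the lists whose count of calls moved most, while smaller shifts of lists are not all given. The part that this array plays in other results was not tested beyond leaving it out. Genes of alpha cells were well above background, for example STE3, the receptor for a-factor (6146 to 7256 with the chelators, 6699, 6850.0 and 7225 with DMSO). Genes of a cells also lay above background, for example MFA2, an a-factor gene, at 110.0 to 130.3 with the chelators and 115, 137 and 109 with DMSO.

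Iron uptake genes rose with the chelators. Of 32 tested genes of the iron regulon 30 were called higher and 0 lower, beside 31.6% and 22.5% of all genes, and 29 had all 6 chelator arrays above all 3 DMSO arrays, beside 24.7% of all genes. The median change of the list was 1.14. In what follows, the chelator values are the lowest, the median and the highest of the 6 arrays, and the DMSO values are those of replicates A, B and C.

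FIT1 encodes a cell wall mannoprotein that holds siderophore iron. Its intensity was 14243, 15288 and 16231 with the chelators, against 182, 168 and 166 with DMSO, a change of 6.47 ± 0.06 (limma adjusted p = 1.93e-29). Its relatives FIT2 (0.81 ± 0.07) and FIT3 (0.69 ± 0.09) were bright in both groups, and FIT2 read 16799, 18113 and 19480.0 with the chelators and 9824, 10296 and 10952 with DMSO. All 6 chelator arrays lay above the DMSO arrays for each of the 3 genes. LSO1, a small gene that responds to iron deprivation, read 871, 1127 and 1446 with the chelators. With DMSO it read 0.826, 10.5 and 2.83, not well above background on any array, so the rise is at least 59.6-fold (fitted change 8.04 ± 0.36, limma adjusted p = 1.29e-15).

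All 4 siderophore transporters rose, ARN1 by 2.16 ± 0.06, ARN2 by 0.85 ± 0.09, SIT1 by 1.36 ± 0.05 and ENB1 by 1.23 ± 0.07. ARN1 had 11230.0, 11924 and 12953 with the chelators, against 2721, 3009 and 2373 with DMSO (limma adjusted p = 1.39e-19). Of 8 ferric reductase genes 7 were called higher and 0 lower. FRE2, a reductase of the cell surface, read 8073, 8772 and 9024 with the chelators, against 502, 502 and 489 with DMSO, a change of 4.12 ± 0.06 (limma adjusted p = 4.34e-26). FRE3, which reduces siderophore iron, rose by 2.85 ± 0.07, FRE5 by 2.95 ± 0.11 and FRE1 by 1.35 ± 0.09. The other reductases moved less, FRE8 by 0.87 ± 0.10, FRE6 by 0.77 ± 0.06 and FRE4 by 0.36 ± 0.11, and the call of FRE4 was lost without DMSO C (0.25, limma adjusted p = 0.113). FRE7 was not above background on any chelator array.

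The oxidase and permease of high-affinity uptake differed in their values. FTR1, the permease, read 13629, 14537 and 15301 with the chelators and 7989.5, 8349 and 10804 with DMSO, and rose by 0.70 ± 0.09 (limma adjusted p = 2.71e-07). FET3, the multicopper oxidase, had 11708, 13128 and 15310.0 with the chelators and 10031, 10615 and 15217 with DMSO. Its groups overlapped and it was not called (0.17 ± 0.11, limma adjusted p = 0.179), but without DMSO C, its brightest control, it was (0.36, limma adjusted p = 0.00384). The low-affinity transporter FET4 rose by 0.48 ± 0.08. ATX1, the copper chaperone that serves FET3, was the other member of the regulon that was not called (0.08 ± 0.07).

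Vacuolar genes moved in both directions. FET5 and FTH1, the oxidase and permease that bring iron out of the vacuole, rose by 1.62 ± 0.05 and 1.58 ± 0.06, and the exporter SMF3 by 0.49 ± 0.06. CCC1, the importer that stores iron there, fell to 492, 553 and 623 with the chelators, against 1666, 1635 and 1299 with DMSO (change -1.47 ± 0.08, limma adjusted p = 2.91e-14). All 6 chelator arrays lay below the DMSO arrays. MRS4, a mitochondrial iron carrier, rose by 1.46 ± 0.06 and its relative MRS3 by 0.36 ± 0.06 (0.24 without DMSO C). HMX1, the heme oxygenase, which frees iron from heme, read 8974, 9409.5 and 9669 with the chelators, against 867, 942 and 752 with DMSO. It rose by 3.45 ± 0.09 (limma adjusted p = 2.51e-20).

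Among regulators, TIS11, which encodes Cth2, rose by 0.95 ± 0.06 and its relative CTH1 fell (change -0.49 ± 0.10). TIS11 read 7794, 8002 and 8192 with the chelators and 4124, 4264 and 3990.0 with DMSO, while CTH1 read 714, 867 and 951 with the chelators and 1394, 1171 and 1053 with DMSO. Neither gene's groups overlapped. The activator genes AFT1 and AFT2 rose by 0.74 ± 0.06 and 0.30 ± 0.09, and the call of AFT2 was lost without DMSO C (limma adjusted p = 0.0515). Other regulon members included FMP23 (2.58 ± 0.10), CCC2, the copper pump that loads FET3 (1.503 ± 0.07), the vacuolar transporter COT1 (1.05 ± 0.04) and the biotin transporter VHT1 (1.03 ± 0.08).

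**Figure D1:**
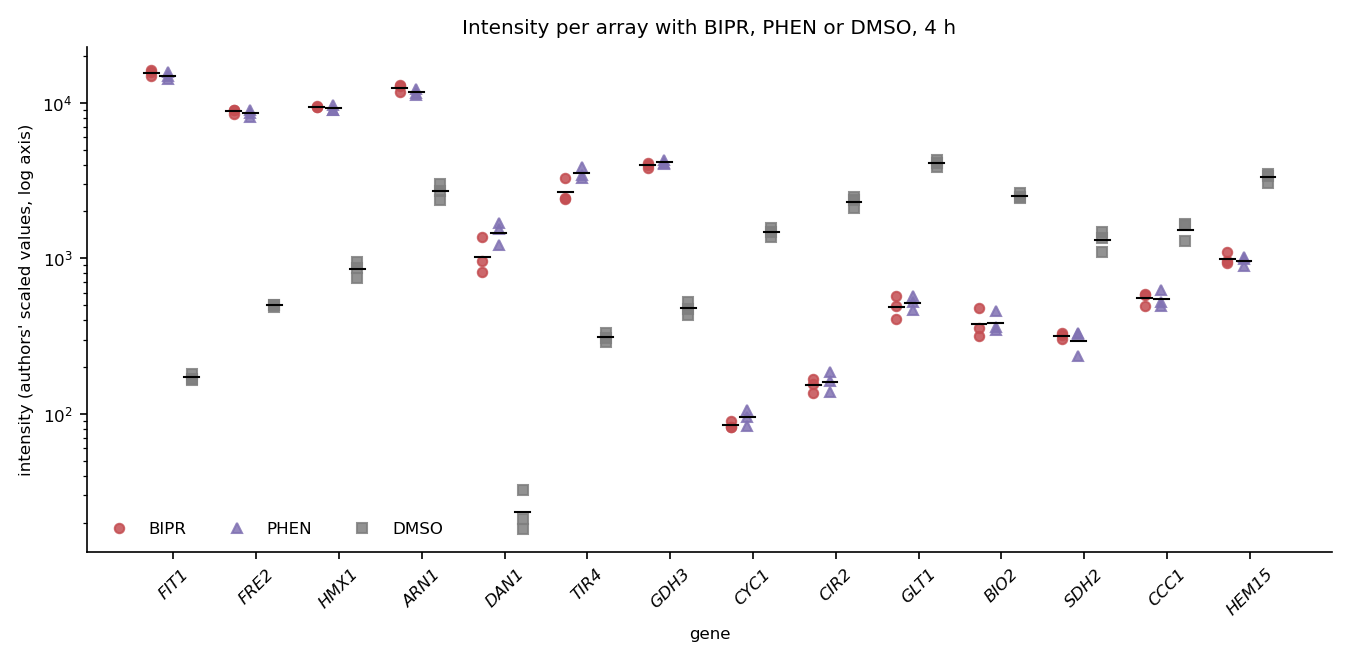
Intensity of 14 genes on each array (authors' scaled values, log axis), with BIPR as red circles, PHEN as purple triangles and DMSO as grey squares; lines mark means of 3 arrays. In FIT1 the chelator arrays sit between 14243 and 16231, above DMSO arrays of 166 to 182, and in CYC1 between 82.9 and 106, below DMSO arrays of 1365 to 1567.

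Genes for iron-sulfur enzymes fell. Of 11 tested enzymes of amino acid, cofactor and energy metabolism 11 were called lower, beside 22.5% of all genes, with a median change of -2.09, and each of the 11 fell at least 2-fold, beside 1.44% of all genes. For each of them all 6 chelator arrays lay below all 3 DMSO arrays, beside 16.4% of all genes. The lowest value was that of CIR2, a probable flavoprotein dehydrogenase of the mitochondrion, which read 136, 159 and 186 with the chelators, against 2469, 2369 and 2101 with DMSO (change -3.87 ± 0.08, limma adjusted p = 6.17e-23). GLT1, glutamate synthase, read 405, 508 and 576 with the chelators, against 3852, 4108 and 4286 with DMSO (change -3.02 ± 0.09, limma adjusted p = 1.42e-19). BIO2, biotin synthase, read 318, 359.9 and 477 with the chelators, against 2632, 2453 and 2466 with DMSO (change -2.72 ± 0.09). For these genes the DMSO means were 14.6, 8.11 and 6.57 times the chelator means.

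The remaining enzymes of the list belong to lysine, leucine, sulfur and energy metabolism. LYS4, homoaconitase of lysine synthesis, changed by -2.34 ± 0.07, and LIP5, lipoate synthase, by -2.20 ± 0.09. SDH2, the iron-sulfur subunit of succinate dehydrogenase, changed by -2.09 ± 0.11, and RIP1, the Rieske protein of complex III, by -1.68 ± 0.09. ILV3, dihydroxyacid dehydratase, changed by -1.57 ± 0.08, and LEU1, isopropylmalate isomerase, by -1.10 ± 0.07. Aconitase, ACO1, changed by -1.13 ± 0.07 and the sulfite reductase subunit MET5 by -1.14 ± 0.09.

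Of 5 iron-sulfur proteins of translation and tRNA modification 5 were called lower (median -1.08). DPH2, of diphthamide synthesis, read 613, 655 and 762 with the chelators, against 3072, 3010.0 and 2658 with DMSO (change -2.14 ± 0.07, limma adjusted p = 6.79e-19). RLI1, which recycles ribosomes, changed by -1.65 ± 0.06 and ELP3, of tRNA wobble modification, by -1.08 ± 0.07. The 7 tested iron-sulfur proteins of DNA maintenance had a median of -0.04, with 1 called higher (DNA2, 0.36 ± 0.09) and 2 lower (POL2, -0.27 ± 0.08, and PRI2, -0.21 ± 0.06). Both scalings named above called 5 of these 7 genes. Over the 3 lists together 18 of 23 genes were called lower and 1 higher.

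Genes that build the clusters moved both ways. Of 18 tested genes of mitochondrial assembly 6 were called higher and 7 lower, beside 31.6% and 22.5% of all genes, and their median was -0.02. The scaffold genes ISU1 and ISU2 rose by 0.59 ± 0.07 and 0.88 ± 0.06, the chaperone SSQ1 by 0.60 ± 0.09 and the cysteine desulfurase NFS1 by 0.48 ± 0.05. Other genes of the list fell. ISA1, needed for clusters with 4 iron atoms, read 345, 424 and 547 with the chelators, against 1747, 1858 and 1563 with DMSO (change -1.998 ± 0.10, limma adjusted p = 1.08e-14). Its partners ISA2 (0.04 ± 0.06) and IBA57 (0.03 ± 0.06) were not called. NFU1 changed by -1.33 ± 0.08, BOL3 by -1.02 ± 0.08 and the glutaredoxin GRX5 by -0.83 ± 0.05. YFH1, yeast frataxin, changed by -1.32 ± 0.07 and the ferredoxin YAH1 by -0.86 ± 0.07. In cytosolic assembly 4 of 10 genes were called higher and 1 lower, beside the same 31.6% and 22.5%, with a median of 0.10. With array weights 3 genes in all were called.

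Of 9 genes of heme synthesis and breakdown 3 were called higher and 5 lower, beside 31.6% and 22.5% of all genes, with HMX1 highest. HEM15, ferrochelatase, which puts iron into heme, read 890.5, 976 and 1096 with the chelators, against 3473, 3401 and 3064 with DMSO (change -1.75 ± 0.08, limma adjusted p = 1.91e-15). HEM13, coproporphyrinogen oxidase, changed by -1.38 ± 0.07 and HEM1, the first enzyme of the pathway, by -0.89 ± 0.06, while HEM2 rose by 0.39 ± 0.06 and HEM14 by 0.28 ± 0.08. Of 12 heme-binding proteins 7 were called lower and 1 higher (median -0.58), beside the same 22.5% and 31.6%. CYC1, the main cytochrome c, read 82.9, 87.4 and 106 with the chelators, against 1567, 1479 and 1365 with DMSO (change -4.01 ± 0.10, limma adjusted p = 1.86e-20). CCP1, cytochrome c peroxidase, changed by -2.69 ± 0.06 and the catalases CTT1 and CTA1 by -1.13 ± 0.11 and -1.07 ± 0.20.

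Genes of the respiratory complexes fell, while those of ATP synthase moved little. Of 26 genes of complexes II, III (with cytochrome c) and IV 22 were called lower and 0 higher (median -0.98), beside 22.5% and 31.6% of all genes. In complex II, SDH1, SDH3 and SDH4 changed by -1.55 ± 0.10, -1.87 ± 0.06 and -1.35 ± 0.11, and the assembly factor SDH6 was not called (0.26 ± 0.16). In complex III, CYT1, cytochrome c1, changed by -1.86 ± 0.16, QCR7 by -1.26 ± 0.08 and QCR10 by -1.35 ± 0.16. In complex IV, COX6 changed by -1.45 ± 0.06, COX4 by -1.19 ± 0.07 and COX5A by -1.07 ± 0.08, and COA2, which assembles the complex, by -2.11 ± 0.19. COX5B, the form of that subunit used at low oxygen, read 1323, 1579.6 and 1903 with the chelators and 1499.9, 1460.5 and 1249.7 with DMSO, and was not called (0.17 ± 0.10). CYC7, the minor cytochrome c, was not called either (-0.37 ± 0.28), although without DMSO C it was (-0.79, limma adjusted p = 0.0226). ATP synthase, which holds no iron, had 4 genes called higher and 3 lower of 14, near the shares of 31.6% and 22.5% of all genes. The median was 0.03, and 4 genes in all were called without DMSO C. In the TCA cycle 5 of 17 genes were called higher and 8 lower (median -0.06), beside 31.6% and 22.5% of all genes. Genes of its enzymes without iron moved both ways. IDH1 (0.78 ± 0.06), IDH2 (0.45 ± 0.07), LSC2 (0.61 ± 0.08), IDP1 (0.33 ± 0.06) and LSC1 (0.21 ± 0.04) rose. KGD1 (-0.66 ± 0.06), KGD2 (-0.30 ± 0.04) and LPD1 (-0.27 ± 0.05) fell, and CIT1, CIT3, FUM1 and MDH1 were not called.

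**Figure D2:**
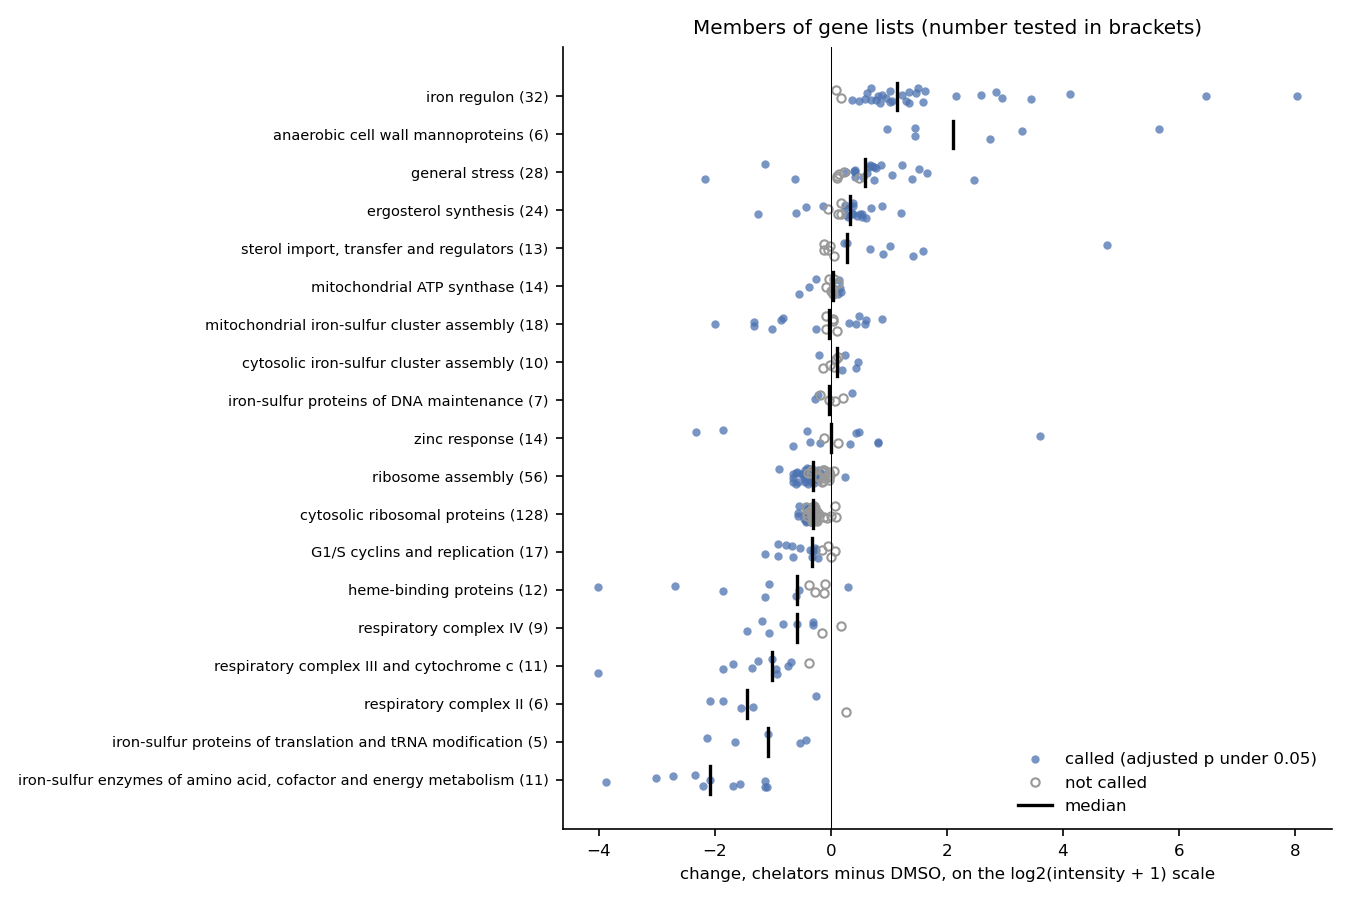
Change of each tested member of 19 gene lists (chelators minus DMSO, log2(intensity + 1) scale); filled points were called, open points were not, and bars mark medians. The iron regulon lies to the right of 0 with a median of 1.14, and the metabolic iron-sulfur enzymes lie to the left with a median of -2.09.

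Cell wall mannoproteins known from anaerobic growth rose. All 6 tested genes of this list were called higher (median 2.10). DAN1 read 813, 1295 and 1681 with the chelators, against 21.1, 18.2 and 32.6 with DMSO, where 1 array was below background (change 5.66 ± 0.24, limma adjusted p = 4.46e-16). TIR4 read 2410.2, 3267 and 3869.6 with the chelators, against 333, 308 and 292 with DMSO (change 3.30 ± 0.11, limma adjusted p = 4.17e-18). TIR1 rose by 2.75 ± 0.10, TIR2 by 1.45 ± 0.10, DAN4 by 1.45 ± 0.08 and TIR3 by 0.96 ± 0.09. A list of 16 oxygen-related genes, which holds aerobic isoforms as well as hypoxic ones and regulators, had 5 called higher and 7 lower (median -0.08), beside 31.6% and 22.5% of all genes. Those called higher were HAP1, the heme-responsive activator (1.18 ± 0.05), its target the repressor ROX1 (0.37 ± 0.09), the desaturase OLE1 (0.73 ± 0.06), its activator MGA2 (1.30 ± 0.09) and the ADP/ATP carrier AAC1 (0.83 ± 0.08). ANB1, the hypoxic form of translation factor eIF5A, was called lower (-0.20 ± 0.07), at -0.30 with BIPR and -0.11 with PHEN. It was not called with PHEN alone (limma adjusted p = 0.211), with the replicate letter as a block or without DMSO A. Its aerobic form HYP2 was called lower too (-0.57 ± 0.06). So were HEM13 (-1.38 ± 0.07), COX5A and CYC1, each with all chelator arrays below the DMSO arrays. The carriers AAC3 (-0.25 ± 0.09) and PET9 (-0.19 ± 0.08), whose groups overlapped, made up the rest. Without DMSO C 6 genes of the list were called lower.

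Sterol genes were higher in most steps. Of 24 ergosterol synthesis genes 16 were called higher and 4 lower, beside 31.6% and 22.5% of all genes, with a median change of 0.33. With each array centred on its median 13 were called higher, and with quantile normalization 20. ERG29 (1.21 ± 0.12), ERG27 (0.89 ± 0.05), ERG26 (0.69 ± 0.07) and HMG2, an HMG-CoA reductase (0.62 ± 0.06), rose most. The 4 that fell were ERG7, lanosterol synthase (-1.25 ± 0.06), the heme enzyme ERG11 (-0.60 ± 0.08), squalene epoxidase ERG1 (-0.43 ± 0.06) and IDI1 (-0.14 ± 0.04). ERG7 read 1112, 1290.5 and 1411 with the chelators, against 3176, 3122 and 2792 with DMSO, and ERG27 read 9909, 10259 and 11068 with the chelators, against 6095, 5421 and 5251 with DMSO. The groups of both genes were apart. Of the 6 enzymes with paired iron atoms, OLE1 and ERG3 (0.54 ± 0.07) rose, and the sphingolipid hydroxylases SCS7 (-1.26 ± 0.07) and SUR2 (-0.83 ± 0.06) fell.

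Genes of sterol import and transfer were called higher in 8 of 13 cases and lower in 0 (median 0.29). UPC2, the sterol-sensing activator, read 846, 927 and 1180.3 with the chelators, against 282, 357 and 321 with DMSO (change 1.59 ± 0.11, limma adjusted p = 5.55e-12), while its paralogue ECM22 was not called (-0.11 ± 0.06), except without DMSO C (-0.20, limma adjusted p = 0.00739). AUS1 and PDR11, which import sterols, rose by 1.42 ± 0.09 and 0.67 ± 0.08, and ARE1, which esterifies them, by 1.01 ± 0.05. HES1, an oxysterol-binding protein homologue, read 2235, 2608 and 3006 with the chelators, against 111, 111 and 68.8 with DMSO (change 4.76 ± 0.13, limma adjusted p = 6.92e-20). FHN1, a relative of the membrane protein Nce102, rose by 2.49 ± 0.10 and YSR3, a sphingoid phosphate phosphatase, by 2.41 ± 0.16. SET4, which encodes a SET domain protein, read 478, 615 and 696 with the chelators and 10.7, 16.03 and 25.2 with DMSO. DMSO A and B were below background there, and SET4 rose by 5.07 ± 0.41 (limma adjusted p = 1.35e-10). PBI1 and YMR317W rose by 4.94 ± 0.10 and 4.404 ± 0.18.

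Amino acid genes moved in both directions within 1 pathway. In glutamate synthesis GLT1 fell and GDH3, an NADP-dependent glutamate dehydrogenase, read 3794, 4059.5 and 4271 with the chelators, against 434, 526 and 473 with DMSO (change 3.08 ± 0.07, limma adjusted p = 1.53e-21). Its main isoform GDH1 was not called (0.10 ± 0.10), except without DMSO C (0.28, limma adjusted p = 0.017), and GDH2, which runs the reverse reaction, rose by 0.71 ± 0.08. In the branched-chain pathway 6 of 13 genes were called lower and 3 higher, beside 22.5% and 31.6% of all genes. Without DMSO C 4 were called lower and 3 higher. Besides the iron-sulfur enzymes LEU1 and ILV3, LEU9, a minor isopropylmalate synthase, fell (change -1.39 ± 0.07), while BAT2, the cytosolic aminotransferase, rose by 0.92 ± 0.06 and the carrier OAC1 by 0.62 ± 0.05. In lysine synthesis LYS4 stood alone below -1, and the next lowest was LYS9 (-0.48 ± 0.08, and -0.29 without DMSO C). Arginine genes had a median of -0.06, with 1 of 8 called lower (ARG3, -0.29 ± 0.06) and 0 higher in limma, and 2 to 3 called under other settings.

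Permeases, sulfur and vitamin genes showed single large changes. BAP2, a permease for branched-chain amino acids, read 699, 778 and 879.9 with the chelators, against 57.9, 71.4 and 40.0 with DMSO (change 3.81 ± 0.14, limma adjusted p = 1.58e-17), and AGP3 rose by 1.22 ± 0.10. Sulfate assimilation had 6 of 14 genes called lower and 2 higher, beside 22.5% and 31.6% of all genes. Next to MET5, its partner subunit MET10 changed by -0.63 ± 0.06, MET14 by -0.95 ± 0.09 and MET16 by -0.79 ± 0.06. Of 6 biotin genes BIO2, BIO4 (-1.14 ± 0.09) and BIO3 (-0.34 ± 0.08) fell, and the transporters VHT1 (1.03 ± 0.08) and BIO5 (0.88 ± 0.20) rose, as did the biotin ligase BPL1 (0.21 ± 0.05). Thiamine genes were called higher in 9 of 14 cases and lower in 2 (median 0.39), beside 31.6% and 22.5% of all genes. They were led by THI13 (1.52 ± 0.10), on a probe set that can hybridise with related genes, and the transporter THI7 (0.99 ± 0.05).

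Genes of other metals also moved. Of 11 copper genes 7 were called higher and 1 lower, beside 31.6% and 22.5% of all genes. CTR1, the high-affinity copper transporter, read 197, 214 and 285 with the chelators, against 557, 552 and 481 with DMSO (change -1.22 ± 0.13, limma adjusted p = 2.56e-08). The vacuolar transporter CTR2 rose by 0.73 ± 0.06, the metallothionein CRS5 by 0.85 ± 0.11 and CCS1, the chaperone of superoxide dismutase, by 0.51 ± 0.06. Of 14 zinc genes 6 were called higher and 6 lower (median 0.0048), beside 31.6% and 22.5% of all genes. ZPS1, a surface protein induced when zinc is low, read 1995, 2519.7 and 2751 with the chelators, against 11528, 11470.0 and 13609 with DMSO (change -2.32 ± 0.10, limma adjusted p = 1.4e-15). ADH4 (-1.86 ± 0.07) and ZAP1, the zinc-sensing activator (-0.66 ± 0.10), fell too, as did the uptake gene ZRT1 (-0.41 ± 0.12), which was not called without DMSO C (-0.18, limma adjusted p = 0.127). IZH4, a membrane protein of a family tied to zinc homeostasis, read 2626, 3009 and 3063 with the chelators, against 281, 253 and 193 with DMSO (change 3.61 ± 0.11, limma adjusted p = 8.9e-19). Its relatives IZH1 (0.81 ± 0.07) and IZH2 (0.81 ± 0.08) rose as well.

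Phosphate genes were called lower in 10 of 13 cases and higher in 2, beside 22.5% and 31.6% of all genes. Without DMSO C 7 of the 13 were called. PHO5, the secreted acid phosphatase, read 774, 864 and 988 with the chelators, against 3569.6, 3481 and 3178 with DMSO (change -1.96 ± 0.11, limma adjusted p = 1.2e-13). PHO8 changed by -0.82 ± 0.05 and SPL2 by -0.73 ± 0.09. PHO84, the transporter, read 10566, 11784 and 13036 with the chelators and 10990.0, 12333 and 22249 with DMSO, with DMSO C far above the rest, and was not called (-0.30 ± 0.13). It was called lower without DMSO A, without DMSO B or without BIPR B, and was at 0.01 without DMSO C (limma adjusted p = 0.919).

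Genes of DNA synthesis and the start of the cell cycle were lower. Of 17 genes 13 were called lower and 0 higher (median -0.33), beside 22.5% and 31.6% of all genes. Among those lower were the cyclins CLB6 (-1.14 ± 0.17), CLN2 (-0.91 ± 0.07) and CLN1 (-0.66 ± 0.09), the cohesin subunit MCD1 (-0.90 ± 0.08) and the sliding clamp POL30 (-0.78 ± 0.07). Fewer cells at this stage and less RNA per cell cannot be told apart in such cultures. Ribonucleotide reductase, whose small subunit holds paired iron atoms, was split. RNR2 and RNR4, the small subunits, changed by -0.76 ± 0.07 and -0.63 ± 0.09, the large subunit RNR1 was not called (-0.10 ± 0.09), and RNR3, the inducible large subunit, rose by 0.94 ± 0.14. RNR2 read 6745, 7244 and 7926 with the chelators, against 11022, 11650.0 and 14636 with DMSO, and RNR3 read 787, 864 and 969 with the chelators, against 566, 476 and 338 with DMSO. The groups did not overlap in either gene. The checkpoint kinase DUN1 changed by -0.92 ± 0.08, and HUG1, a small gene induced by replication stress, rose by 0.79 ± 0.08.

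Many cytosolic ribosomal protein and ribosome assembly genes were lower by small amounts. For the ribosomal proteins the count, and whether it exceeds the share of all genes, depends on DMSO C and on the scaling. Of 128 cytosolic ribosomal protein genes 86 were called lower and 0 higher (median -0.31), beside 22.5% and 31.6% of all genes. Without DMSO C 20 were called lower (median -0.07), a smaller share than that of all genes in that setting (1230 of 5429). With quantile normalization 29 were called lower, again a smaller share than that of all genes (1524 of 5429). With centred arrays 103 were called lower, where 1687 of 5429 genes were. Ribosome assembly genes were called lower in 37 of 56 cases and higher in 1 (median -0.31), and in 38 and 0 cases without DMSO C. Mitochondrial ribosomal protein genes were called lower in 17 of 66 cases, a share near the 22.5% of all genes, and higher in 1 (median -0.04). In all 34 of them were called with quantile normalization, 32 with centred arrays, 11 with the PHEN arrays alone and 9 with the replicate block. Of 5 alpha-cell genes 4 were called lower, and 2 were without DMSO C. Stress genes were called higher in 20 of 28 cases and lower in 3 (median 0.59), beside 31.6% and 22.5% of all genes. Without DMSO C 16 were called higher and 3 lower. HSP26, a small heat shock protein, read 1428, 2639.6 and 3366 with the chelators, against 972, 855 and 473 with DMSO (change 1.65 ± 0.24, limma adjusted p = 2.33e-06), and HSP78 rose by 1.41 ± 0.13. HSP12, a common stress marker, read 142, 213 and 233 with the chelators and 215, 193 and 114 with DMSO. It was not called (0.23 ± 0.19), and was at -0.04 without DMSO C. YRO2, a plasma membrane protein, fell (change -2.17 ± 0.18).

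Defence and sugar genes moved singly. TSA2, a peroxiredoxin, read 1258, 1462 and 1703 with the chelators, against 205, 183 and 113 with DMSO (change 3.17 ± 0.13, limma adjusted p = 4.35e-16), while its abundant relative TSA1 changed by -0.37 ± 0.10, and by -0.10 without DMSO C (limma adjusted p = 0.132). NQM1, a paralogue of transaldolase, rose by 2.46 ± 0.15, and by 2.09 without DMSO C. Its DMSO arrays read 221, 240 and 106. PDC6, a minor pyruvate decarboxylase, read 2087, 2249.7 and 2594 with the chelators, against 258, 409 and 277 with DMSO (change 2.90 ± 0.14, limma adjusted p = 3.95e-15), and PDC5 changed by -0.47 ± 0.12. TPI1, of core glycolysis, read 16789, 18786 and 20367 with the chelators and 16563, 19427 and 39002 with DMSO, with DMSO C highest. Of 23 glycolysis and fermentation genes 4 were called higher and 5 lower, beside 31.6% and 22.5% of all genes. Without DMSO C 4 in all were called, but without DMSO A 20 were. Among efflux pumps QDR2 rose most (1.24 ± 0.07), and PDR5 fell (change -0.31 ± 0.07).

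Other genes among the largest changes have roles that are less settled or not stated here. VBA3 rose by 3.89 ± 0.26, on a probe set that can hybridise with related genes, and 2 DMSO arrays were below background. YTP1 rose by 3.07 ± 0.10. YML083C read 47.4, 55.1 and 76.9 with the chelators, against 10.1, 5.85 and 2.33 with DMSO, below background, so its rise is at least 3.01-fold (fitted change 3.20 ± 0.27). YER053C-A (-2.13 ± 0.26, and -2.62 without DMSO C), UBX6 (-1.82 ± 0.08), STP4 (-1.79 ± 0.12), YDR222W (-1.73 ± 0.10) and FMP10 (-1.62 ± 0.11) fell. STP4 read 499, 619.6 and 693 with the chelators, against 2258, 2269 and 1716 with DMSO, with all chelator arrays below.

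Set side by side, the effects of the compounds against their shared DMSO arrays were as follows, at doses that differ. BIPR called 1502 genes higher (27.7%) and 1005 lower (18.5%), and PHEN called 1586 higher (29.2%) and 1069 lower (19.7%). The iron regulon had a median change of 1.17 with BIPR and 1.15 with PHEN, and the metabolic iron-sulfur enzymes of -2.03 with BIPR and -2.14 with PHEN. FIT1 changed by 6.50 with BIPR and by 6.43 with PHEN. ARN1 changed by 2.21 with BIPR and by 2.12 with PHEN, and HMX1 by 3.47 with BIPR and by 3.44 with PHEN. For iron users, CIR2 changed by -3.91 with BIPR and by -3.83 with PHEN, GLT1 by -3.06 with BIPR and by -2.98 with PHEN, and RIP1 by -1.79 with BIPR and by -1.58 with PHEN. The anaerobic mannoproteins had a median of 2.07 with BIPR and 2.17 with PHEN: DAN1 changed by 5.40 with BIPR and 5.92 with PHEN, and TIR4 by 3.10 with BIPR and 3.50 with PHEN. The ergosterol genes had a median of 0.33 with each compound. Among copper genes CTR1 changed by -1.07 with BIPR and -1.37 with PHEN, and CRS5 by 0.65 with BIPR and 1.04 with PHEN. No test was made between the compounds, because their doses differ.

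**Figure D3:**
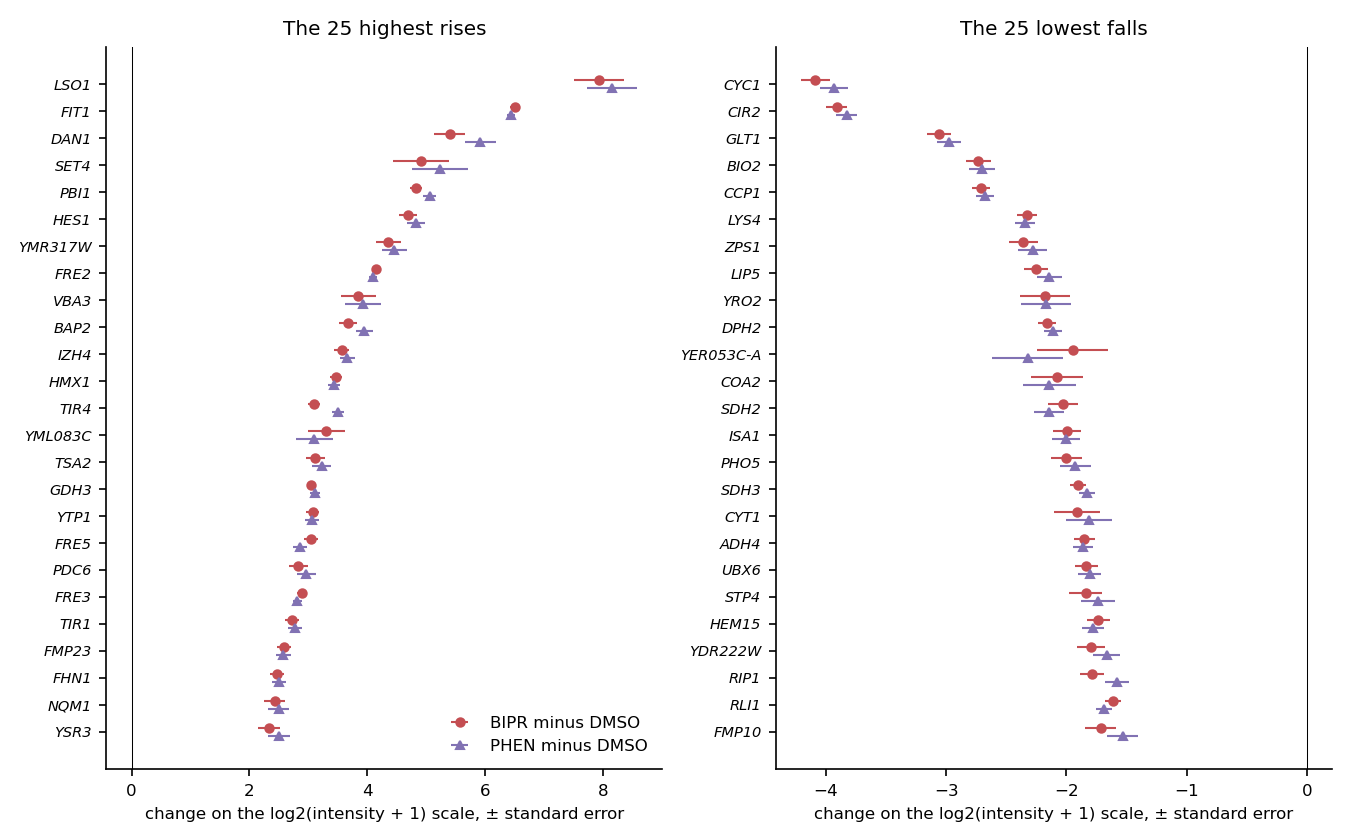
Change from DMSO (log2(intensity + 1) scale, ± standard error) of the 25 genes with the highest rises and the 25 with the lowest falls, for BIPR (red circles) and PHEN (purple triangles), which share 3 DMSO arrays. The points lie at 6.50 for BIPR and 6.43 for PHEN in FIT1, and at -4.09 for BIPR and -3.93 for PHEN in CYC1.

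The chelator effect was then set against the effects of E9591 and LMT at 4 h, each taken against the DMSO arrays of its experiment, and each difference was tested in limma. Such p-values leave out variation between experiments, and doses differ. The chelator effect was above that of E9591 for 544 genes (10%) and below it for 1031 (19%), with 59 (1.09%) and 190 (3.5%) at least 2-fold apart. This split was 857 above and 852 below with quantile normalization, and 880 and 832 with centred arrays. Against LMT it was above for 1150 genes (21.2%) and below for 1603 (29.5%), with 177 (3.26%) and 339 (6.24%) at least 2-fold apart. With quantile normalization the split was 1469 above and 1381 below, and with centred arrays 1578 and 1226. The shares above and below, 10% and 19% for E9591 and 21.2% and 29.5% for LMT, are the background for list counts of these differences.

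Most iron regulon genes were higher under all 3 conditions. The iron regulon had a median of 1.14 with the chelators, 1.05 with E9591 and 0.82 with LMT, and 29 and 25 of its 32 genes were called higher with E9591 and LMT, beside 31.9% and 40.4% of all genes. With E9591 0 were called lower, and with LMT 2 were, FRE1 (-0.28) and BNA2, of NAD synthesis (-0.73). FIT2 and FIT3 were not called with LMT (0.09 and 0.05). The chelator effect was above that of E9591 in 11 of the 32 genes and below it in 1, beside 10% and 19% of all genes. Against LMT it was above in 17 and below in 5, beside 21.2% and 29.5%. FIT1 changed by 6.47 with the chelators, 5.12 with E9591 and 3.14 with LMT, and both differences passed (1.34 and 3.32, limma adjusted p = 1.01e-10 and 3.56e-18). LSO1 changed by 8.04 with the chelators, 7.29 with E9591 and 9.85 with LMT, but its controls were below background. BAP2, which is not a regulon member, changed by 3.81, 3.67 and 5.73 in that order.

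Genes of metabolic iron-sulfur enzymes and of complex III fell further with the chelators than with E9591 or LMT, which did not hold for every group of iron-using proteins. For 11 of 11 metabolic iron-sulfur enzymes the chelator effect was below that of E9591, beside 19% of all genes, and for 11 of 11 it was below that of LMT, beside 29.5%. The medians were -2.09 with the chelators, -0.26 with E9591 and -0.38 with LMT. GLT1 changed by -3.02 with the chelators, -0.40 with E9591 and -0.18 with LMT (differences -2.62 and -2.84, limma adjusted p = 1.08e-13 and 7.32e-15). ISA1 fell with the chelators and rose with LMT, at -1.998 with the chelators, 0.39 with E9591 and 1.25 with LMT (differences -2.39 and -3.25, limma adjusted p = 7.27e-12 and 9.1e-15). Complex III with cytochrome c had medians of -1.01 with the chelators, -0.09 with E9591 and -0.42 with LMT. In 10 of its 11 genes the chelator effect was below that of E9591, beside 19% of all genes. It was below that of LMT in 8, beside 29.5%. For the 6 enzymes with paired iron atoms it was above that of E9591 in 4 genes and below it in 2, beside 10% and 19%. The same counts held against LMT, beside 21.2% and 29.5%. For the 7 iron-sulfur proteins of DNA maintenance it was above and below that of E9591 in 0 genes, and above and below that of LMT in 1 each. For the 12 heme-binding proteins it was above that of E9591 in 1 and below it in 6, beside the same 10% and 19%. Against LMT it was above in 4 and below in 5, beside the same 21.2% and 29.5%. CYC1 changed by -4.01 with the chelators, -0.66 with E9591 and -1.66 with LMT (differences -3.35 and -2.35, limma adjusted p = 4.07e-14 and 7.95e-12).

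The sterol and wall genes differed in the other direction. For 6 of 6 anaerobic mannoproteins the chelator effect was above that of E9591, beside 10% of all genes, and for 5 above that of LMT, beside 21.2%. For ergosterol genes it was above in 18 of 24 against E9591 and in 20 against LMT, beside the same 10% and 21.2%. Their list medians were 0.33 with the chelators, -0.19 with E9591 and -0.44 with LMT. TIR1 changed by 2.75 with the chelators, 0.01 with E9591 and -1.66 with LMT (differences 2.73 and 4.41, limma adjusted p = 3.13e-13 and 1.53e-17). HES1 changed by 4.76 with the chelators, 0.28 with E9591 and -0.61 with LMT (differences 4.48 and 5.37, limma adjusted p = 1.48e-14 and 1.25e-16). IZH4 changed by 3.61 with the chelators, 0.10 with E9591 and -0.79 with LMT. PLB2, a phospholipase, and ATF2, an alcohol acetyltransferase, rose by 1.08 and 1.58 with the chelators. They changed by -0.36 and -0.15 with E9591, and by -3.10 and -1.60 with LMT.

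The a-cell genes and the genes of gluconeogenesis moved less with the chelators than with E9591 and LMT. The 6 a-cell genes had medians of 0.20 with the chelators, 2.19 with E9591 and 1.98 with LMT. In 6 of 6 genes the chelator effect was below that of E9591 and that of LMT, beside 19% and 29.5% of all genes. The 2 a-cell genes called with the chelators were STE6 (0.31 ± 0.11) and BAR1 (0.36 ± 0.14). Both calls were lost without DMSO C, at 0.28 and 0.23 (limma adjusted p = 0.0786 and 0.261). Under several other settings 1 or both were lost as well. Gluconeogenesis and glyoxylate genes had medians of 0.18 with the chelators, 1.27 with E9591 and 1.74 with LMT. In 9 of 16 genes the chelator effect was below that of E9591 and in 12 below that of LMT, beside the same 19% and 29.5%. CRC1, the mitochondrial carnitine carrier, changed by -0.58 with the chelators, 3.21 with E9591 and 3.83 with LMT. HSP12 changed by 0.23 with the chelators, 2.38 with E9591 and 5.18 with LMT. SRL4 was below background on all 6 chelator arrays and changed by 4.91 with E9591 and 3.45 with LMT. Single genes with the lowest differences moved in several ways. NCA3, known from mitochondrial ATP synthase biogenesis, changed by -0.999 with the chelators, 0.30 with E9591 and 2.74 with LMT. VHR1 changed by -0.21 with the chelators, 1.18 with E9591 and 2.27 with LMT. YNR068C changed by 0.31 with the chelators (0.21 without DMSO C, limma adjusted p = 0.0549), 2.36 with E9591 and 3.13 with LMT. YPR078C changed by 0.65 with the chelators, 1.82 with E9591 and 3.09 with LMT.

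**Figure D4:**
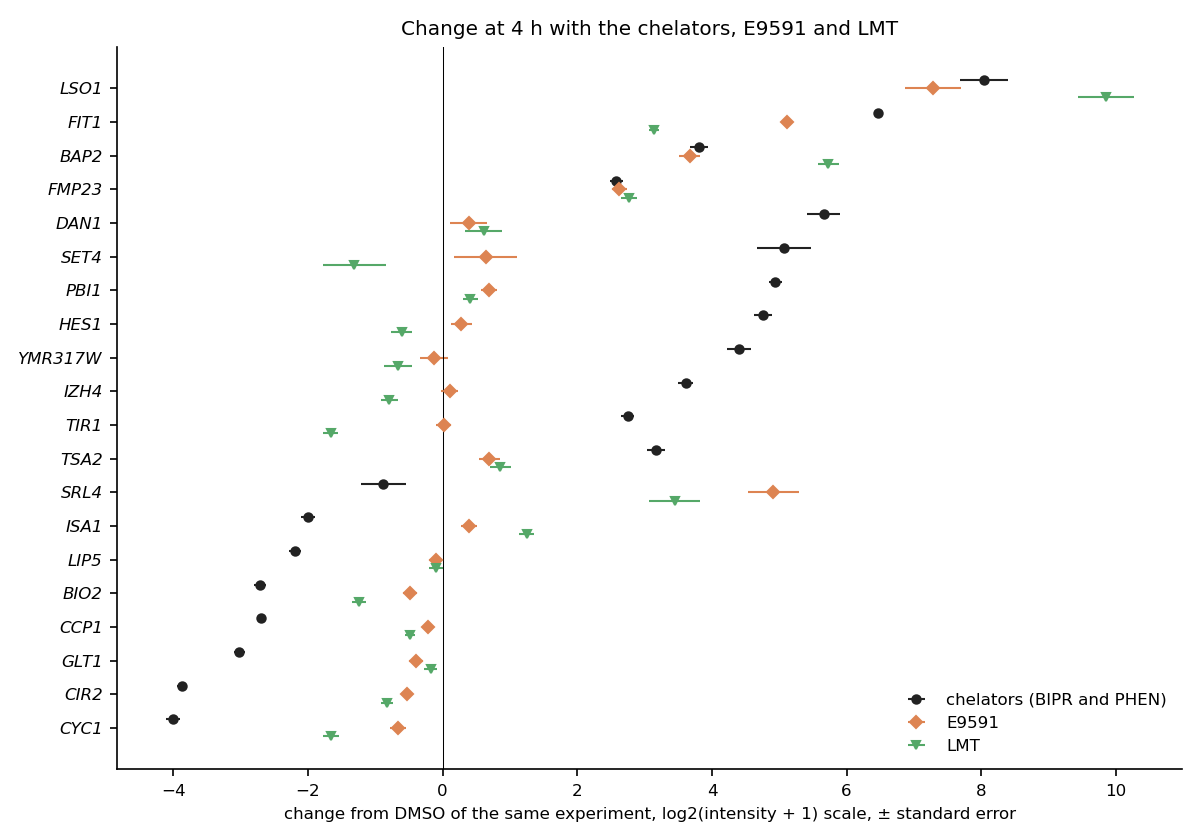
Change from the DMSO arrays of the same experiment (log2(intensity + 1) scale, ± standard error) of 20 genes with the chelators (black circles, 6 arrays), E9591 (orange diamonds) and LMT (green triangles), 3 arrays each. FIT1 and LSO1 lie right of 0 in all 3, while DAN1 and CYC1 lie far from 0 with the chelators, at 5.66 and -4.01, and within 2 of it with E9591 and LMT.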

How the data were processed

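The deposited values are intensities on a linear scale, 1 per probe set and array, scaled by the authors to about the same 2% trimmed mean on each array, as the values show. The sources used here do not give the array software, its version or the way probes were summarised. The table held 10928 probe sets on 30 arrays. GEO's platform annotation gave 5498 of them 1 yeast gene, 1 several genes and 3683 none, and 1746 belong to another yeast species. Where a gene had several probe sets, as 47 did, that of highest mean intensity represented it. The background floor of an array was the 95th percentile of the other-species probe sets, which lay between 11.2 and 34.5, and a gene was tested when it was above the floor on at least 3 arrays, as 5429 of 5449 were.

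The fit was made on log2(intensity + 1) by limma 3.58.1 under R 4.3.3 (lmFit and eBayes) over all 30 arrays, with the 6 chelator arrays as 1 group, 9 means and 21 residual degrees of freedom. P-values were adjusted by the method of Benjamini and Hochberg over all tested genes. The test was run on simulated arrays with independent noise and 1 SD per gene. It called 92% of genes given a log2 change of 0.5, 100% of those given 1, 2 or 3, and 0.153% of unchanged genes. No simulated array was shifted like DMSO C, so this check does not cover calls that depend on that array. Effects of each compound came from the same fit with separate means. Where a group was below the floor on every array, its values were raised to the floor of each array. The fold is then a bound, the geometric mean of the other group over that of the raised values. The number of arrays limits the precision: the median 95% confidence half-width of a change was 0.161. Named genes were the 25 highest rises and 25 lowest falls among called genes whose groups did not overlap, the 10 highest and 10 lowest differences against each of E9591 and LMT by the same criteria, and members of the gene lists. The members and lists were chosen with earlier results of these data known. Genes were grouped by textbook roles, and no test was made over a list. Scaling, pseudocount, filter, arrays in the fit, array weights, variance trend, replicate block and each left-out array were tried as alternatives. Promoter sequences were not analysed here.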

Additional observations from a re-analysis of the deposited data

Results flagged for a closer look

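In 8 of 198 genes 1 of the 6 chelator arrays lay far from the other 5, by the ratio of its gap to the whole range; chance passes the limit used, Dixon's critical value at 95%, in about 1 of 20 groups. TIR1 had the highest ratio, 0.8357, with 11470 in PHEN C and 10110 to 10320 on the other chelator arrays. SDH2 had 235 in PHEN A and 303.1 to 333.5 on the others (ratio 0.7265), and SDH4 had 1032 in PHEN B and 720.6 to 805.4 on the others (0.6904). AFT2 had 393.4 in PHEN B and 474.5 to 523.1 on the others (0.6577), and FRE5 had 1382 in PHEN B and 1643 to 1806 on the others (0.6462). IZH4 had 2626 in BIPR B and 2902 to 3063 on the others (0.6487). PHO8 had 4503 in BIPR B and 4007 to 4181 on the others (0.6345), and SMF3 had 6392 in BIPR B and 5713 to 5951 on the others (0.6359). The reason was not tested.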

How the results depend on the processing

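Of 4356 values for 198 genes under 22 other settings, 4276 kept their direction and side of the threshold, 52 lost the call, 15 gained it and 13 changed sign, none of them called. The sign changes were ATX1 with centred arrays (-0.0014), HSP12 and RNR1 with array weights (-0.044 and 0.043), GDH1 without DMSO A (-0.00043, with a range of -0.00043 to 0.28 over left-out arrays), HSP12 without DMSO C (-0.043 to 0.41) and PHO84 without DMSO C (-0.50 to 0.013). IBA57 and ISA2 turned with quantile normalization (-0.061 and -0.065), centred arrays (-0.054 and -0.048) and array weights (-0.068 and -0.014), and IBA57 without DMSO B (-0.00024, with a range of -0.00024 to 0.092). The count of genes higher with the chelators was 1029 with array weights, against 1715, and the split of calls was then 1029 higher and 971 lower; without DMSO C it was 1268 and 1230. The count of genes with a chelator effect above that of E9591 was 857 with quantile normalization and 880 with centred arrays, against 544. The cause was not tested. Over left-out arrays the count higher with the chelators was 1268 to 1843 and lower 1077 to 1230, at least 2-fold higher 142 to 203 and lower 75 to 92. Above and below the E9591 effect the counts were 461 to 616 and 849 to 1374, and above and below the LMT effect 1034 to 1207 and 1418 to 1876. Of the 253 genes that changed at least 2-fold, 238 to 253 were called the same way under every setting that tested all of them.

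With the replicate letter as a block over 9 arrays, 1434 genes were called higher and 929 lower, against 1466 and 986 for the same arrays with no block. Correlations of same-letter deviations ran from -0.017 to 0.227, and those between other letters from -0.20 to 0.114. These ranges overlap, so whether the letters pair the cultures could not be decided. Small changes of bright genes depend on DMSO C, and genes at or below the floor have no measured level. The promoter motifs planned were not run.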
